A study of Mus musculus with 12 samples.

Results

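Small nuclear and nucleolar RNAs are short noncoding RNAs that work inside protein particles in the nucleus. The genes described here are the rows of the deposited count tables whose symbol begins with Snora, Snord, Scarna or Rnu, or is Rn7sk, Rmrp, Rpph1 or Rprl2, and that held at least 10 counts summed over the 12 libraries, so that they were chosen by name and by their summed count. Of 54658 genes in the tables, 168 carried such a name and 86 reached 10 counts. Another 76 had no count in any library and 6 had 1 to 9 counts. Many of the 76, such as Snora24 in Snhg8 and Snord47 in Gas5, lie in an exon of another gene on the same strand. Their lack of counts therefore says nothing firm about their RNA. Just outside the limit, Rnu6 and Snord90 had 9 counts each, and just inside it Snord42a had 10 and Rnu1b1 had 11. The 86 genes comprised Rn7sk (7SK RNA), Rprl2, 7 spliceosomal Rnu genes, 6 nucleolar Rnu genes, 20 Snora genes, 43 Snord genes and 8 Scarna genes.

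RNA was sequenced from 9 mammary tumours of genotype Trp53R245W/+ (a heterozygous missense change in the tumour suppressor p53, somatic and the driver of these tumours per the series description) and from 3 preparations of enriched mammary epithelium of WT genotype, from mice of the same cohort. All samples came from female C57BL/6J X BALB/cJ F1 hybrids, and no age or treatment is in the labels. Total RNA was taken with a Qiagen RNeasy mini column kit and made into libraries with a stranded TruSeq protocol. Tumours are named here by their label numbers 1, 4, 5, 14, 17, 20, 21, 24 and 27, and epithelium libraries by 1, 2 and 3.

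The classes differ in what they do. 7SK RNA holds the elongation kinase P-TEFb in an inactive particle, and spliceosomal small nuclear RNAs recognise splice sites, with U11 and U12 serving the rare introns of the minor spliceosome. Box C/D RNAs (Snord genes) guide 2′-O-methylation and box H/ACA RNAs (Snora genes) guide pseudouridylation, mostly of ribosomal RNA, while U3 and U8 are box C/D RNAs needed for ribosomal RNA processing. Scarna genes encode small RNAs of the Cajal body that guide the same changes in spliceosomal RNAs. In mammals most guide RNAs are cut out of introns of host genes, whereas 7SK, RNase P RNA, the spliceosomal RNAs, U3 and U8 have promoters of their own.

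Sequences of 7 genes on which the results turn are given as GENCODE M21 transcripts on build GRCm38, 5′ to 3′ and in DNA letters. Rn7sk (chr9:78175303-78175633, minus strand) and Rprl2 (chr3:22251374-22251663, plus strand, annotated as an RNase P RNA in RefSeq) are shown as the members with the largest count and the largest fold change. Rnu11 (U11 RNA, chr4:132270080-132270213, minus strand) and Rnu12 (U12 RNA, chr15:83149644-83149794, plus strand) are the minor spliceosomal RNAs, Snord118 (U8, chr11:69073427-69073561, plus strand) and Snora23 (chr7:110046364-110046547, plus strand) are a U8 gene and a box H/ACA gene that were called higher, and Rnu73b (chr3:86140618-86140688, minus strand) is the gene with the most negative fold change, shown for that reason. Rn7sk, Rprl2, Rnu11, Rnu12 and Snord118 overlapped no gene on the same strand, while Snora23 lay in an intron of Ipo7 and Rnu73b in an intron of Rps3a1. Capitals mark GATC in Rn7sk, the Sm protein site in Rnu11 and Rnu12, the first box C and last box D in Snord118 and Rnu73b, and the ACA of Snora23. No letters are marked in Rprl2. Of Rn7sk only the first 100 bases are shown (chr9:78175534-78175633), which hold its GATC repeats.
Rn7sk: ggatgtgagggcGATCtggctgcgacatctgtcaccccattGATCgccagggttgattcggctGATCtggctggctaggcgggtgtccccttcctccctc
Rprl2: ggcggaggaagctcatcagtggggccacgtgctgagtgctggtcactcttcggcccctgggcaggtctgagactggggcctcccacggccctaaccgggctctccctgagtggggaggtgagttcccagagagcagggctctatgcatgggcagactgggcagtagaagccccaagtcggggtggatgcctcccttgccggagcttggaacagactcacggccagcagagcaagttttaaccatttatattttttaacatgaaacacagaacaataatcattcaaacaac
Rnu11: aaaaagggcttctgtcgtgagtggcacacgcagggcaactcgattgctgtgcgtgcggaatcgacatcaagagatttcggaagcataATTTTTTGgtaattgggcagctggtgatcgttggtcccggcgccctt
Rnu12: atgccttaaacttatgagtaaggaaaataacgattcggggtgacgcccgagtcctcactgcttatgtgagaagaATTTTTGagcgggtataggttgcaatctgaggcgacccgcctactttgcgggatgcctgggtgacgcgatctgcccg
Snord118: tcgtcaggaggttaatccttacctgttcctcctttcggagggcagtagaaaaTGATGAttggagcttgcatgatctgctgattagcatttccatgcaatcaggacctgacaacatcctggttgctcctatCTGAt
Snora23: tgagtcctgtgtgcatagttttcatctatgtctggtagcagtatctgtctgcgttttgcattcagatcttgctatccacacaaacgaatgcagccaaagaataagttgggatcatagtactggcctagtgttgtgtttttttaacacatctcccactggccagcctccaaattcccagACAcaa
Rnu73b: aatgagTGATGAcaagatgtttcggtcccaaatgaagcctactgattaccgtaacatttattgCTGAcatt

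These letters were searched for on the transcribed strand only. GATC occurs 3 times in Rn7sk, and 62.1% of the first 331 bases of 55723 protein-coding transcripts hold it at least once. The Sm site, searched as ATTTNTG or ATTTTTTG, was found in 7 of 7 spliceosomal Rnu genes, against 2.8% of windows of the length of Rnu11. Box C (TGATGA) was in 31 of 43 Snord genes and box D (CTGA) in 43 of 43, against 3.7% and 51.8% of windows of the length of Snord118. An ACA placed 3 bases before the 3′ end was in 17 of 20 Snora genes, against 1.7% of windows of the length of Snora23. A match is a description of letters and not of a working site.

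Levels are given as CPM (counts per 1000000 gene counts), with library sizes adjusted by the trimmed mean of M values (TMM). Gene counts per library ran from 19695318 to 33600076, and tumour 4 had both the lowest total and the lowest scaling factor, 0.557, against 0.896 to 1.10 in the other tumours and 1.16 to 1.19 in epithelium. Its CPM are therefore raised by the scaling, and values for tumour 4 are also given as shares of its gene counts. Tumour 4 and, to a lesser degree, epithelium 3 stood apart from their groups for these genes, and results that rest on them are given without them. Alignments to several places made up 17.1 to 52.0% of all counted records in tumours and 8.59 to 12% in epithelium, and alignments outside genes 8.08 to 32.3% in tumours and 39.9 to 41.5% in epithelium. Summed CPM of 7 T and NK cell markers was 2.34 to 34.7 in tumours and 358 to 425 in epithelium, with 7 of 7 genes lower in tumours, and that of 4 B cell markers was 1.54 to 43.2 in tumours and 359 to 493 in epithelium, with 4 of 4 lower. The 4 markers of cycling cells summed to 430 to 2663 CPM in tumours and 111 to 185 CPM in epithelium, and 4 of 4 rose. Endothelial markers summed to 127 to 420 CPM in tumours and 669 to 738 CPM in epithelium (3 of 4 genes lower), and adipocyte markers to 11.7 to 114.9 CPM in tumours and 315 to 488 CPM in epithelium (1 of 4 lower). The 7 mammary epithelial markers were present in both groups, at 1383 to 6714 CPM in tumours and 2071 to 2931 CPM in epithelium. Of them, 2 rose, the adhesion genes Epcam and Cdh1 (log2 fold changes 1.75 and 1.54, adjusted p = 0.0233 and 0.0465). Krt5, Krt8 and Krt18 (1.29, 0.51 and 0.69) and Krt14 and Krt19 (-0.68 and -1.23) did not pass. Macrophage markers summed to 139 to 764 CPM in tumours and 247 to 263 CPM in epithelium. Fibroblast markers summed to 800.5 to 13899 CPM in tumours and 2129 to 3053 CPM in epithelium. No macrophage, fibroblast or skeletal muscle marker passed. In such bulk samples, more cells of a type and more RNA per cell cannot be told apart. The part of cell make-up and of the shares of alignments in the results below was not tested, and the prefix of the library titles coincides with the group, so that whatever the prefix marks and the group cannot be told apart.

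Of the 86 genes, 65 passed the filter on low counts and were tested. In tumours 20 of the 65 (30.77%) were called higher and 3 (4.615%) were called lower by edgeR's quasi-likelihood test at an adjusted p under 0.05 over all 21456 genes tested. Over all genes tested, 8.89% were called higher and 11.4% lower. The median log2 fold change was 1.05 for the 65 genes and 0.17 for all genes tested. All 9 tumours lay above all 3 epithelium libraries for 21 of the 65 genes, against 10.2% of all genes tested, and below them for 5 of the 65, against 14.1% of all genes tested. A gene can pass the filter through its high group alone. DESeq2 called 26 members higher and 5 lower (13.4% and 12.7% of all genes with an adjusted p), and limma-voom 27 and 10 (25.3% and 27.3% of all genes tested). Without the filter, 19 of the 86 genes were called higher and 1 lower, where 3.98% and 6.37% of 38829 genes were called. Leaving out epithelium 1, 2 or 3 left 7, 9 or 12 genes called higher, and 6 of the 20 genes kept their call whichever of the 12 libraries was left out.

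**Figure D1:**
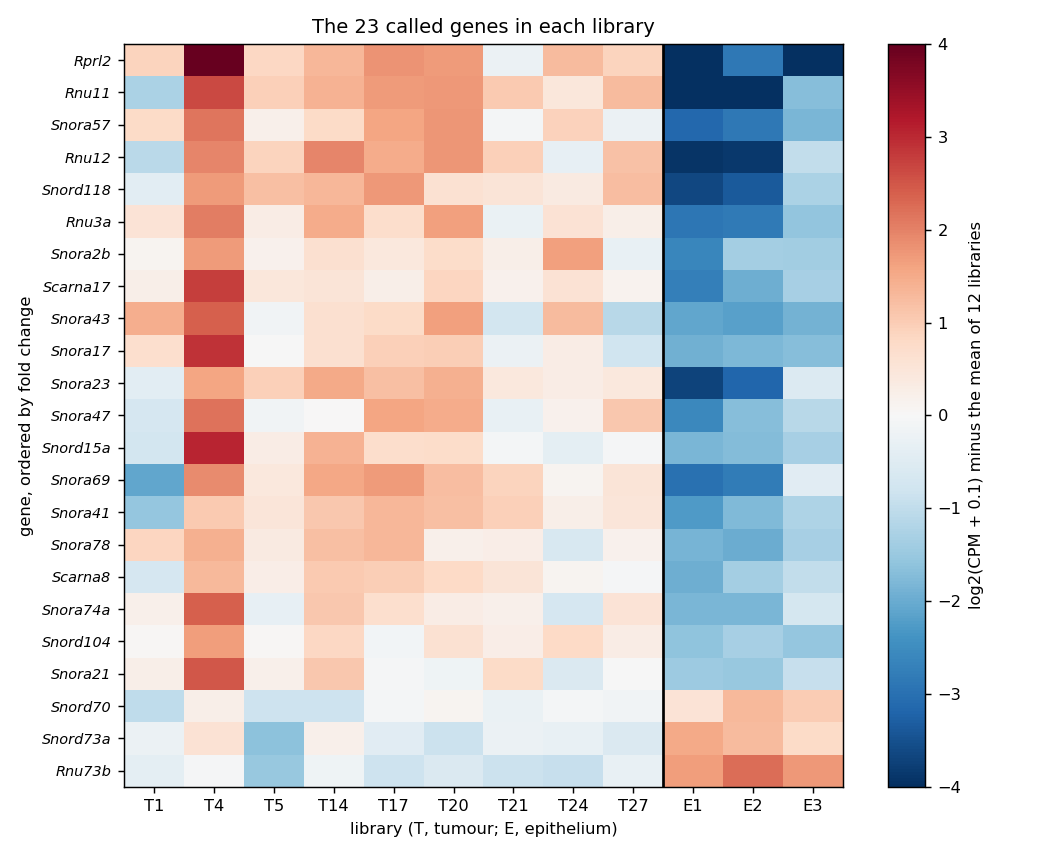
Heat map of the 23 called genes (rows, by fold change) in the 9 tumours (T, left) and 3 epithelium libraries (E, right), with colour giving log2(CPM + 0.1) minus the mean of the 12 libraries. Most genes are high in tumours and highest in T4, E3 is less low than E1 and E2 for Rnu11, Rnu12, Snord118, Snora23 and Snora69, and the 3 genes called lower form the bottom rows.

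Rn7sk, the 7SK RNA, had the highest level per length of the 86 genes, at a mean of 223160 CPM per kilobase in tumours and 44940 CPM per kilobase in epithelium. It had a median of 31332 CPM in tumours, with 19616 CPM in tumour 1 as the lowest and 405325 CPM in tumour 4 as the highest, against 12807, 13766 and 18053 CPM in epithelium 1, 2 and 3. All tumours therefore exceeded all epithelium libraries, and tumour 4 lay far above the other 8, whose highest value was 47650 CPM. The log2 fold change of 2.31 (SE 1.08) did not pass the test (adjusted p = 0.141). Without tumour 4 it was 1.14 and passed (adjusted p = 0.0462), and with tumour 4 and epithelium 3 both left out it was 1.29 and did not pass (adjusted p = 0.104). DESeq2 and limma-voom called it at 1.10 and 1.34 (adjusted p = 0.00735 and 0.00389). Of the 50-base windows of Rn7sk, 68.1% also occur in at least 1 of 7 other annotated genes, so part of its reads may have been set aside as not unique.

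Of the RNase P and RNase MRP genes in the rule, Rprl2 alone reached 10 counts. Rmrp, the RNA of RNase MRP, had 0 counts in 12 libraries, and Rpph1, the RNA of RNase P, had 1 count, in tumour 4. Rmrp is annotated by 2 gene models and Rpph1 lies within an exon of Ccnb1ip1 on the same strand, so their counts say nothing firm about their RNA. Rnu3a and Snora43, both called higher, and Rnu3b1 to Rnu3b4 are also annotated by 2 gene models each. What this does to their counts was not tested. Rprl2 ranged from 2.90 CPM in tumour 21 over a median of 8.25 CPM to 86.1 CPM in tumour 4, against 0, 0.382 and 0 CPM in epithelium 1, 2 and 3. Every tumour was above every epithelium library, and the 3 epithelium libraries together held 11 counts, all in epithelium 2. It rose in tumours with a log2 change of 6.96 (SE 1.66, adjusted p = 0.0111), a size that depends on those 11 counts. Without epithelium 1 or 3 the call was lost (adjusted p = 0.0551 and 0.0548), and without tumour 4 the log2 fold change was 5.90 and passed (adjusted p = 0.00393). Rprl3, another gene that RefSeq annotates as RNase P RNA and that was looked up after its values were seen, had 18793 CPM in tumour 4 and 1294 to 3133 CPM in the other tumours, against 0.795, 135 and 0.0675 CPM in epithelium 1, 2 and 3. Nearly all its epithelium counts, 3900 against 23 and 2, thus lay in epithelium 2. Its log2 fold change of 6.45 (SE 2.03) passed narrowly (adjusted p = 0.0405), and was 5.55 without tumour 4 (adjusted p = 0.0384) and 13.14 without epithelium 2 (adjusted p = 0.00233). The call was lost without epithelium 1 or 3 (adjusted p = 0.117 and 0.0831), without tumour 14, 17 or 24 (adjusted p = 0.0510, 0.0525 and 0.0505), without the filter on low counts (adjusted p = 0.0568) and without both tumour 4 and epithelium 3 (adjusted p = 0.0514).

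Among spliceosomal RNAs, those of the minor spliceosome rose in tumours and the major ones measured did not pass the test. Rnu11 had 98.0 CPM in tumour 1, a median of 564 CPM and 1466 CPM in tumour 4, against 13.0, 13.8 and 72.7 CPM in epithelium 1, 2 and 3. The groups did not overlap, with tumour 1 the lowest tumour and epithelium 3 far above the other epithelium libraries. Its log2 fold change was 4.22 (SE 0.86, adjusted p = 0.00458) and 5.52 without epithelium 3. Rnu12 had 57.6 CPM in tumour 1, a median of 276 CPM and 478 CPM in tumour 14 as the highest, against 7.99, 8.27 and 61.9 CPM in epithelium 1, 2 and 3. Here tumour 1 fell below epithelium 3, so the groups overlapped, while the other 8 tumours lay above all epithelium libraries. Its log2 fold change was 3.48 (SE 0.86, adjusted p = 0.0136). The call was lost without epithelium 1 (adjusted p = 0.0703) or 2 (adjusted p = 0.0682), and the value was 5.15 without epithelium 3. An exon of Gm28872 lies on the strand opposite Rnu11, and since it is not stated whether the counting used strand, reads of the pair cannot be told apart. Rnu12 shares 53.9% of its 50-base windows with 2 other genes.

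Rnu5g (U5) had 0.266 to 3.69 CPM in tumours and 0.868 to 2.36 CPM in epithelium (log2 fold change 0.08, adjusted p = 0.942), a value whose sign depended on the scaling. Rnu2-10 (U2) had 0.105 to 2.1 CPM in tumours and 0.899 to 1.18 CPM in epithelium (log2 fold change -0.64, adjusted p = 0.539), and limma-voom called it lower (-1.29, adjusted p = 0.0158). For both, the tumour range took in the whole epithelium range. For Rnu2-10, 7 tumours lay below all epithelium libraries and 2 above, and for Rnu5g 3 lay below and 2 above. Of their 50-base windows, 82.1% for Rnu5g and all for Rnu2-10 occur in other genes, and alignments to several places were kept out of the gene counts, so these levels cover part of the RNA at most. Rnu1a1, a U1 gene with 54 counts in tumours and 50 in epithelium, had a log2 fold change of -1.16 that did not pass (adjusted p = 0.249). In 7 tumours it lay below all epithelium libraries, and limma-voom called it lower. It too shares all its 50-base windows with other genes. Over the class, 2 of 5 tested genes rose and none fell in edgeR, against 8.89% and 11.4% of all genes tested. The median log2 fold change was 0.08.

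**Figure D2:**
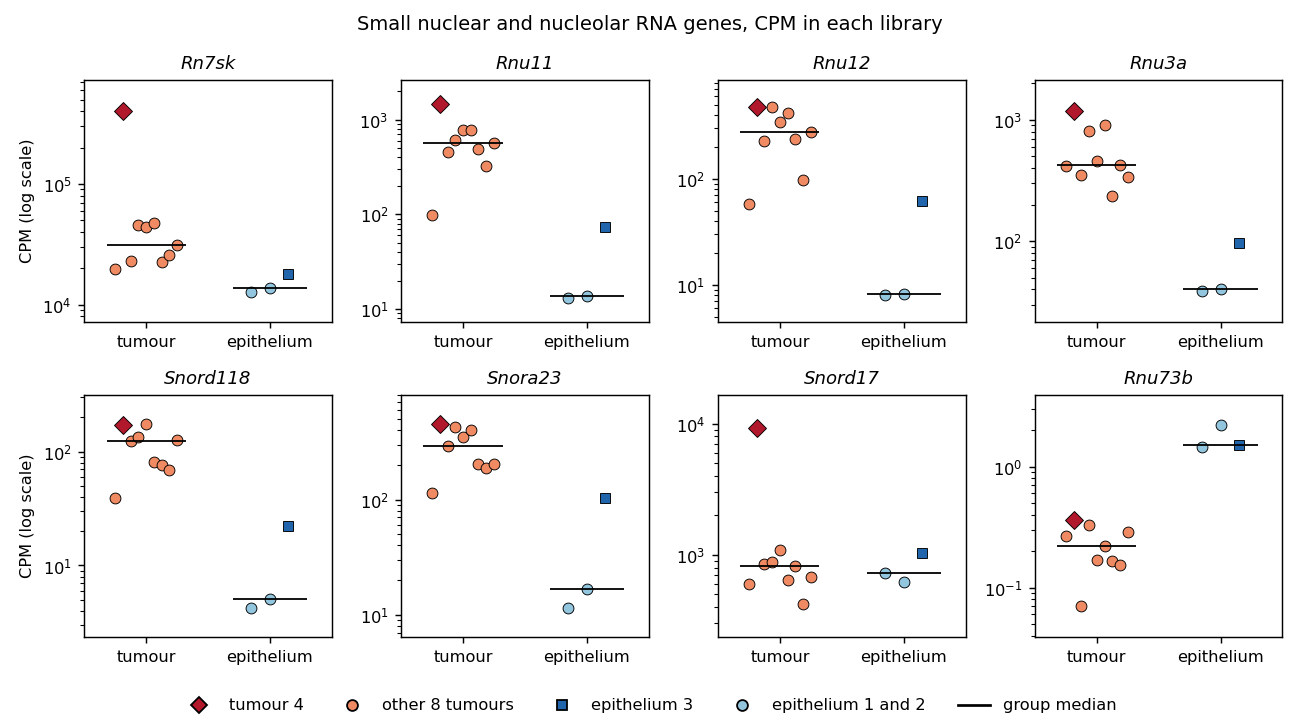
CPM (log scale) of 8 genes in each library, with tumours left and epithelium right, tumour 4 as a red diamond, epithelium 3 as a blue square and bars at the group medians. Rn7sk and Snord17 are set apart by tumour 4 at 405325 and 9228 CPM, Rnu11, Snord118 and Snora23 are higher in all 9 tumours than in any epithelium library and Rnu12 in 8 of 9, with epithelium 3 above epithelium 1 and 2 for these 4 genes, and Rnu73b is the gene lower in all 9 tumours.

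Among RNAs of ribosomal RNA processing, the U3 gene Rnu3a and the U8 gene Snord118 rose in tumours, while Snora73b (U17), described below, was not called. Rnu3a, a U3 gene, had 238 CPM in tumour 21, a median of 426 CPM and 1189 CPM in tumour 4, against 38.6, 40.4 and 96.8 CPM in epithelium 1, 2 and 3. No tumour overlapped the epithelium, and the log2 fold change was 3.28 (SE 0.60, adjusted p = 0.00226). Snord118, which encodes U8, had 39.4 CPM in tumour 1, a median of 124 CPM and 176 CPM in tumour 17, against 4.22, 5.10 and 22.2 CPM in epithelium 1, 2 and 3. The groups were again separate, at a log2 change of 3.40 (SE 0.65, adjusted p = 0.00307), or 4.56 without epithelium 3. Both kept their call whichever library was left out. The U3 genes Rnu3b1 to Rnu3b4 lie in an intron of Tex14. Rnu3b4, with 36 counts in tumours and 10 in epithelium, was not tested, and the other 3 share all their 50-base windows with other genes. The levels of these 3 were 0.0700 to 5.92 CPM in tumours and 0.506 to 1.66 CPM in epithelium, with log2 fold changes of 0.13, -0.20 and -0.40 that did not pass (adjusted p = 0.923, 0.876 and 0.771), although limma-voom called Rnu3b3 lower (-1.20, adjusted p = 0.0492). The sign for Rnu3b1 turned without tumour 4.

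Rnu73b, a box C/D RNA that carries an Rnu symbol, had the most negative fold change of the tested members, and was singled out after its values were seen. It had 0.0700 CPM in tumour 5, a median of 0.221 CPM and 0.364 CPM in tumour 4, against 1.45, 2.19 and 1.52 CPM in epithelium 1, 2 and 3. The groups were far apart, but the counts behind them were small, 50 in 9 tumours and 150 in 3 epithelium libraries. Its log2 fold change was -2.93 (SE 0.40, adjusted p = 0.000325), and the call held whichever library was left out.

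The box H/ACA class moved most evenly. Of 17 tested Snora genes, 11 rose and none fell, against 8.89% and 11.4% of all genes tested. The log2 fold changes were positive for 17 of 17, with a median of 2.42. Summed over the class, Snora genes had 717 to 2596 CPM in tumours and 391 to 675 CPM in epithelium. Snora57 had 43.4 CPM in tumour 27, a median of 88.3 CPM and 226 CPM in tumour 4, against 5.74, 7.05 and 14.4 CPM in epithelium 1, 2 and 3, without overlap (log2 fold change 3.58, SE 0.63, adjusted p = 0.00169). Snora78 had 9.83 CPM in tumour 24, a median of 19.6 CPM and 41.2 CPM in tumour 4, against 4.15, 3.82 and 6.11 CPM in epithelium 1, 2 and 3, also without overlap (log2 fold change 2.42, SE 0.48, adjusted p = 0.00358). Both calls held whichever library was left out.

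Snora23 had 114 CPM in tumour 1, a median of 294 CPM and 452 CPM in tumour 4, against 11.5, 16.6 and 103 CPM in epithelium 1, 2 and 3. The separation between tumour 1 and epithelium 3 was narrow. Its log2 fold change was 2.74 (SE 0.70, adjusted p = 0.0161), it was 4.37 without epithelium 3, and the call was lost without epithelium 1 (adjusted p = 0.0714) or 2 (adjusted p = 0.0819). Snora41 had 1.66 CPM in tumour 1, a median of 9.86 CPM and 12.8 CPM in tumour 17, against 0.968, 1.42 and 2.09 CPM in epithelium 1, 2 and 3, so that tumour 1 overlapped epithelium 3. It rose at a log2 change of 2.53 (SE 0.57, adjusted p = 0.00800), a call lost without epithelium 1 (adjusted p = 0.0581). Snora73b, the Snora gene with the highest level per length (3172 CPM per kilobase in tumours and 2057 in epithelium), was not called. This gene, which encodes U17, an RNA of ribosomal RNA cleavage, had 400.3 to 1543 CPM in tumours and 348 to 517 CPM in epithelium, with overlap, and its log2 fold change of 0.62 did not pass (adjusted p = 0.302).

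Snora17 and Snora43, named here after their values were seen, are 1204 bases apart on chromosome 2 with no annotated gene of another symbol over them on their strand. Snora17 had 7.07 to 92.8 CPM in tumours and 3.15 to 3.72 CPM in epithelium, and Snora43 had 3.74 to 43.1 CPM in tumours and 1.74 to 2.13 CPM in epithelium. Both were highest in tumour 4 and lowest among tumours in tumour 27, and both rose (log2 fold changes 2.85 and 3.16, adjusted p = 0.0207 and 0.0114), but both calls were lost whichever of the 3 epithelium libraries was left out.

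Few box C/D genes of the Snord series were called. Of 30 tested, 3 rose and 2 fell, near the 8.89% of all tested genes that rose and below the 11.4% that fell, and the median log2 fold change was 0.03, against 0.17 for all genes tested. The 43 genes summed to 649 to 10734 CPM in tumours and 702 to 1136 CPM in epithelium, with overlap. Their median length was 79 bases, against 137 bases for the Snora genes. Members under 100 bases, of any class, had a median of 0.46 for their mean CPM over the 12 libraries. Whether the Snora and Snord classes differ apart from length and level was not tested. Besides U8, Snord104 rose, with 8.26 CPM in tumour 17, a median of 11.0 CPM and 28.9 CPM in tumour 4, against 2.87, 3.54 and 3.04 CPM in epithelium 1, 2 and 3. No tumour overlapped the epithelium, and its log2 fold change of 2.12 (SE 0.43, adjusted p = 0.00444) passed whichever library was left out. Snord15a, in an intron of the ribosomal protein gene Rps3, had 87.7 CPM in tumour 1, a median of 182 CPM and 1201 CPM in tumour 4, against 40.8, 44.4 and 57.7 CPM in epithelium 1, 2 and 3. It rose at a log2 change of 2.67 (SE 0.82, adjusted p = 0.0369), which was 2.01 without tumour 4 (adjusted p = 0.00867), and the call was lost without epithelium 1, 2 or 3 or tumour 14 (adjusted p = 0.142, 0.133, 0.115 and 0.0513).

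The Snord genes that fell had few counts. Snord70 had 0.332 to 0.911 CPM in tumours, with a median of 0.689 CPM, against 1.18, 2.05 and 1.66 CPM in epithelium 1, 2 and 3 (log2 fold change -1.38, SE 0.37, adjusted p = 0.0209). Snord73a had 0 to 0.364 CPM in tumours, with a median of 0.154 CPM, against 0.795, 0.660 and 0.439 CPM in epithelium 1, 2 and 3 (log2 fold change -2.03, SE 0.60, adjusted p = 0.0320). All tumours lay below all epithelium libraries for both. Snord70 rested on 136 counts in tumours and 142 in epithelium, and Snord73a on 33 in tumours and 55 in epithelium. Without the filter on low counts neither passed (adjusted p = 0.0527 and 0.0586). The Snord70 call was lost without epithelium 2 (adjusted p = 0.129) or 3 (adjusted p = 0.0858), and the Snord73a call without epithelium 1 (adjusted p = 0.158), 2 (adjusted p = 0.121) or 3 (adjusted p = 0.0802).

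Snord17, a box C/D RNA with 7100 CPM per kilobase in tumours and 3324 in epithelium, was not called. It had 424 CPM in tumour 24, a median of 824 CPM and 9228 CPM in tumour 4, against 727, 619 and 1028 CPM in epithelium 1, 2 and 3. Tumour 4 stood alone, and the other tumours overlapped the epithelium. The log2 fold change of 1.09 did not pass (adjusted p = 0.423) and was -0.08 without tumour 4.

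Cajal body RNAs were mixed, with 2 of 6 tested genes higher, none lower and a median log2 fold change of 1.73. The shares over all genes tested were 8.89% higher and 11.4% lower. Scarna17 had 1.67 CPM in tumour 27, a median of 2.06 CPM and 10.8 CPM in tumour 4, against 0.138, 0.313 and 0.540 CPM in epithelium 1, 2 and 3, and rose (log2 fold change 3.16, SE 0.78, adjusted p = 0.0138). Scarna8 had 0.731 CPM in tumour 1, a median of 1.82 CPM and 3.19 CPM in tumour 4, against 0.242, 0.417 and 0.574 CPM in epithelium 1, 2 and 3, and rose (log2 fold change 2.20, SE 0.53, adjusted p = 0.0116). Neither overlapped between the groups, but without epithelium 1 or 2 neither call held (adjusted p = 0.0791 and 0.0691 for Scarna17, and 0.0790 and 0.0607 for Scarna8). Scarna17 shares 70% of its windows with another gene.

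Scarna2, with the highest level per length of its class (785 CPM per kilobase in tumours and 211 in epithelium), had 108 CPM in tumour 1, a median of 176.5 CPM and 1256 CPM in tumour 4, against 84.2, 102.5 and 75.3 CPM in epithelium 1, 2 and 3. Its groups were just separate, and its log2 fold change of 1.90 did not pass (adjusted p = 0.103). DESeq2 and limma-voom called it at 1.21 and 1.37 (adjusted p = 0.0358 and 0.00258). Scarna13 and Scarna6 had log2 fold changes of 1.56 and 1.36 that did not pass (adjusted p = 0.225 and 0.236) and were 0.69 and 0.53 without tumour 4, and Scarna9 had -0.38 (adjusted p = 0.443).

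Calls were counted separately for genes with and without an annotated host, meaning a GENCODE M21 gene of another symbol over them on the same strand. Those without one include Snora and Snord genes, such as Snora17, Snora43, Snora57 and Snord104. The split is therefore not one between intron-encoded RNAs and RNAs with promoters of their own. Whether such genes have a host that the annotation lacks was not tested. Of 15 tested members with no gene over them on the same strand, 10 rose and none fell, with a median log2 fold change of 3.16. Of 50 tested members inside a gene on the same strand, 10 rose and 3 fell, with a median of 0.43. For 44 members there was a single tested host, 35 hosts in all. Of these members 9 rose and 3 fell, and of the 35 hosts 2 rose and none fell. Against the 8.89% and 11.4% of all tested genes that rose and fell, the members held more higher and fewer lower calls, and the hosts fewer of both. The median log2 fold change was 0.17 for the members and 0.24 for their hosts, close to the 0.17 of all genes tested. Only for Snora2b, named here after its values were seen, did member and host both rise. It lies in an exon of Kansl2, and reads that HTSeq could assign to either gene are set aside as ambiguous, so both counts may lack reads.

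Values of single pairs follow. Rps3a1, a ribosomal protein gene that holds both Rnu73b and Snord73a in its introns, averaged 706 ± 561 CPM in tumours and 727 ± 51.3 CPM in epithelium (SD, n = 9 and 3; log2 fold change -0.04, adjusted p = 0.961), while both small RNA genes fell. Nop58, which encodes a core box C/D protein and is the host of Snord70, averaged 128.5 ± 35.2 CPM in tumours and 128 ± 27.8 CPM in epithelium (log2 fold change 0.00, adjusted p = 0.994). Ipo7, an importin gene and host of Snora23, averaged 246 ± 87.2 CPM in tumours and 209.7 ± 15.9 CPM in epithelium (log2 fold change 0.23, adjusted p = 0.644). The other way round, Snhg10, the noncoding host of Scarna13, rose (log2 fold change 1.63, adjusted p = 0.0125), while Scarna13 did not pass. The remaining hosts of named genes did not pass: Haus6 at 0.25, Atg16l1 at -0.15, Cep295 at -0.22, Snhg9 at 1.31, Eef1b2 at 0.62, Rps3 at 0.58, Snx5 at -0.69, Rbmx at 0.05, Chd8 at -0.42 and Tex14 at -0.37 on the log2 fold change scale (adjusted p = 0.0692 to 0.951). The difference between a member and its host was not itself tested.

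Fold change also varied with annotated length. Of 26 tested genes under 100 bases, 2 rose and 3 fell, near the 8.89% and 11.4% of all tested genes, with a median log2 fold change of -0.39. Among 23 tested genes of 100 to under 150 bases, 13 rose and none fell, 23 of 23 fold changes were positive and the median was 2.20. For 16 tested genes of 150 bases or more, 5 rose and none fell, with a median of 1.46. Across the 65 genes the Spearman correlation of length with log2 fold change was 0.50, as a description over genes that share libraries and, in part, loci. Within Snord genes it was 0.43 over 30 genes, and within Snora genes 0.24 over 17 genes. Length ran with level too, at 0.47 with mean CPM over the 86 genes. Other tested genes of about the same range of exonic length, 857 in all, had 10.97% called higher, 22.29% called lower and a median of -0.43. The 30 protein-coding genes among them had 46.67% called higher, 10% called lower and a median of 1.84, and the 827 others 9.674% higher, 22.73% lower and a median of -0.45.

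**Figure D3:**
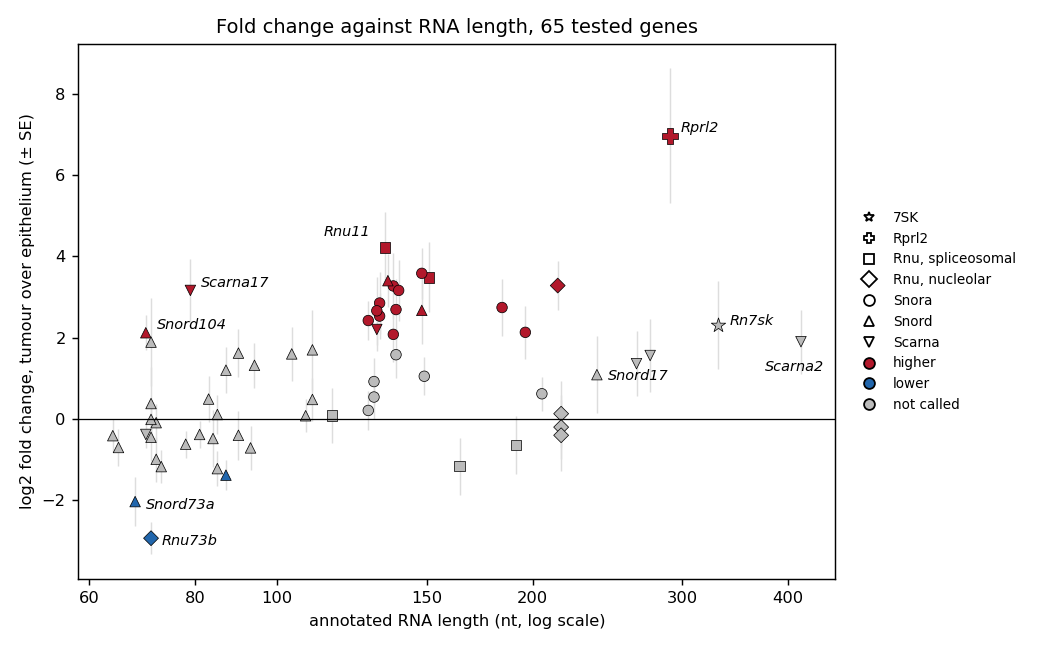
Log2 fold change (tumour over epithelium, ± SE) of the 65 tested genes against annotated RNA length on a log scale, with symbols for the classes and colours for genes called higher, called lower or not called. The genes called lower are all under 100 bases, and 13 of the 20 called higher are of 100 to under 150 bases.

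Epithelium 3 held more of several of these RNAs than the other epithelium preparations. For 11 of 61 members with at least 20 epithelium counts it exceeded the mean of epithelium 1 and 2 by over 2-fold, against 1.664% of all tested genes with that many counts. The ratio was 7.62 for Rnu12, 7.31 for Snora23, 6.00 for Snora69, 5.42 for Rnu11 and 4.77 for Snord118. Of the 11 genes, 10 were called higher in tumours, against 20 of the 65 tested members and 8.89% of all genes tested. The 11 were picked by epithelium values that also enter that test, so no link is drawn from this count. Snora69, like Rnu12 and Snora41, overlapped between the groups through tumour 1.

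Protein partners and noncoding host genes of these RNAs were called higher in edgeR about as often as all genes tested. Over 11 lists of particle proteins, transcription and assembly factors and host noncoding genes, 13 of 139 tested genes rose and 3 fell, with a median log2 fold change of 0.55, close to the background shares for genes that rose and below them for genes that fell. The Sm and LSm proteins, which form the rings on spliceosomal RNAs, had 5 of 16 higher and none lower, with a median of 1.18. Over all genes tested, 8.89% were higher and 11.4% lower. Snrpd1 averaged 71.2 ± 49.2 CPM in tumours and 16.4 ± 0.605 CPM in epithelium (log2 fold change 2.12, adjusted p = 0.0143). Of 20 proteins particular to single spliceosomal particles, Snrnp35, a U11/U12 protein, rose (log2 fold change 1.99, SE 0.38, adjusted p = 0.00300), whereas Sf3b1, a U2 protein also used by the minor spliceosome, and Snrnp48, another U11/U12 protein, fell (log2 fold changes -0.70 and -0.83, adjusted p = 0.0248 and 0.0249).

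Of 6 box H/ACA proteins, Nhp2 rose (log2 fold change 1.41, adjusted p = 0.0313) and the list median was 1.02. None of 4 box C/D proteins passed in edgeR (2 at an unadjusted p under 0.05, none by DESeq2 and 2 higher by limma-voom), with a median of 0.65. Among 9 assembly factors, Ruvbl1 and Ruvbl2, helicases that help build these particles, rose (log2 fold changes 1.70 and 1.46, adjusted p = 0.00699 and 0.0396), and among 11 Cajal body and assembly genes Gemin6 rose (log2 fold change 1.62, adjusted p = 0.0237).

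In the list of 26 snRNA transcription and 3′ processing genes, Ints6, an Integrator subunit, fell (log2 fold change -0.89, adjusted p = 0.0144) and none rose. Of 9 genes of the 7SK particle and P-TEFb none passed in edgeR (2 at an unadjusted p under 0.05, 2 higher by DESeq2, and 3 higher and 1 lower by limma-voom). Their median was 0.26, and Hnrnpa2b1, with the highest CPM of the list, had a log2 change of 0.45 (adjusted p = 0.122). None of 11 RNase P and MRP proteins passed either (3 at an unadjusted p under 0.05, 3 higher by DESeq2 and 6 higher by limma-voom). Their median was 1.13, and Rpp14, with the highest CPM among them, had 0.87 (adjusted p = 0.173). For scale, DESeq2 called 13.4% of all genes with an adjusted p higher and 12.7% lower, and limma-voom 25.3% and 27.3% of all genes tested. Of 15 noncoding host genes, Snhg20 and Taf1d rose (log2 fold changes 1.41 and 1.49, adjusted p = 0.0191 and 0.0449). Leaving out epithelium 1, 2 or 3 reduced the 16 calls to 3, 3 or 4.

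Among noncoding RNA genes outside the rule, given for context, Vaultrc5 (vault RNA), Terc (telomerase RNA), Rny1 and Rny3 (Y RNAs) rose, at log2 fold changes of 4.09, 5.06, 1.29 and 1.64 (adjusted p = 0.0173, 0.0234, 0.0487 and 0.0329). The groups were separate for Terc and overlapped for Vaultrc5, Rny1 and Rny3. Vaultrc5 had 80.7 to 2539 CPM in tumours and averaged 87.8 CPM in epithelium (SD 116). The long nuclear RNAs Malat1 and Neat1 had log2 fold changes of -0.55 and -1.18 that did not pass (adjusted p = 0.182 and 0.0605).

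Tumour 4 was singled out with its values known, so its difference from the other tumours is a description without a test. The 86 genes took 23.62% of its gene counts, against 1.96 to 5.779% in the other tumours and 1.686 to 2.348% in epithelium. Rn7sk alone took 22.58% of the gene counts of tumour 4, and the other 85 genes together took 1.04%, against 0.202 to 0.562% in the other tumours. Tumour 4 also had the largest share of alignments to several places, 51.97%, and mitochondrial genes took 11.17% of its gene counts, against 1.297 to 3.432% in the other tumours.

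Of 41 members with at least 20 counts in tumour 4, it was the highest tumour for 36, or 87.8%, against 23.6% of all tested genes with that many counts. The median ratio of tumour 4 to the median of the other 8 tumours was 3.82, from 1.25 for Snora41 to 14.2 for Rn7sk, against 1.03 over all genes with that many counts, and 32 of the 41 exceeded 2. The minimum of 20 counts removes genes that were low in tumour 4. Over all 65 tested members, a set taken after seeing the data, tumour 4 was the highest tumour for 47, against 18.2% of all tested genes, and lay below the median of the others for 6, against 54% of all tested genes. Those 6 were Snord43, Snord49b, Snord85, Snord91a, Snord93 and Snord123, all Snord genes, and for Snord85 tumour 4 was the lowest, with 1 count against 11 to 23 in the other tumours (ratio 0.178).

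These counts depend on the scaling. On total gene counts, tumour 4 was the highest tumour for 18 of the 41 members and 19 of the 65, against 7.01% of all tested genes. It lay below the median of the other tumours for 6 of the 41, which were Snora41 at a ratio of 0.649, Scarna9 at 0.792, Snord53 at 0.890, Snord118 at 0.944, Rnu12 at 0.962 and Rnu5g at 0.987, and for 21 of the 65, against 75.9% of all tested genes. The median ratio over the 65 members was 2.60 on TMM library sizes and 1.45 on total gene counts, against 0.904 and 0.496 over all tested genes.

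Classes were raised unequally in tumour 4. Its ratio to the median of the other tumours was 14.2 for Rn7sk, 11.7 for Rprl2, 10.3 for the Snord sum and 8.79 for the Scarna sum, and 2.89 for the Snora sum, 2.82 for the nucleolar Rnu sum and 2.48 for the spliceosomal Rnu sum. The Snord sum was mostly Snord17, at 9228 CPM in tumour 4 against 424 to 1092 CPM in the other tumours. Snord61 had 3.65 CPM in tumour 4 against 0.0700 to 0.544 CPM in the others, and Snord8 had 40.1 CPM in tumour 4 against 1.19 to 4.61 CPM in the others. The minor spliceosomal RNAs and U8 stood out less, with ratios of 2.78 for Rnu11, 1.84 for Rnu12 and 1.68 for Snord118, or 1.45, 0.962 and 0.944 on total gene counts. Of 23 of the 41 members with a single tested host, the ratio was larger for the member in 20 and for the host in 3, which were Rpl39 (6.81, against 2.24 for Snora69), Tpt1 (6.80, against 4.70 for Snora31) and Eef1b2 (3.80, against 1.25 for Snora41).

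**Figure D4:**
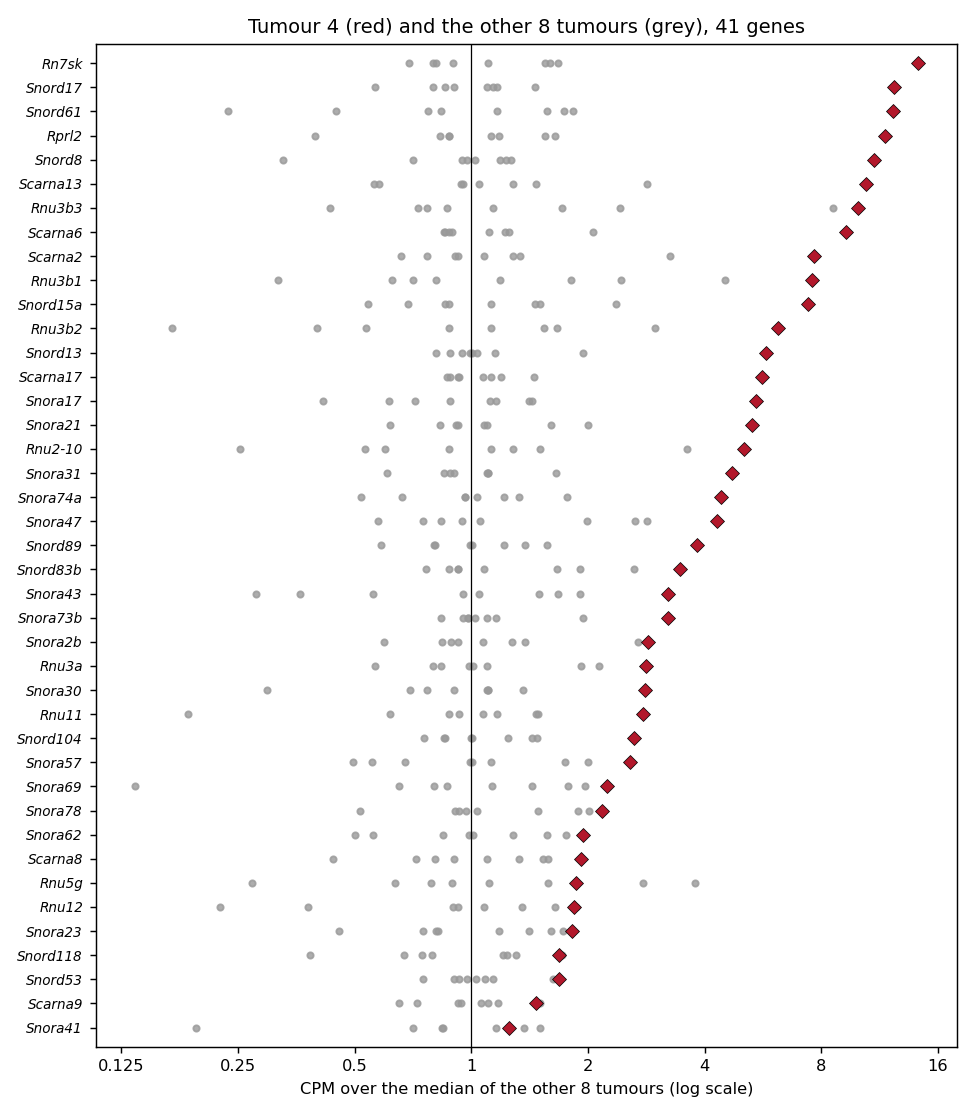
CPM of tumour 4 (red diamonds) and of each of the other 8 tumours (grey points), divided by the median of those 8 (log scale), for the 41 genes with at least 20 counts in tumour 4. On these TMM library sizes tumour 4 lies to the right of 1 for all 41 genes, which the count minimum in tumour 4 favours, and beyond every other tumour for 36 of them, at up to 14.2 for Rn7sk, and on total gene counts 6 of the 41 lie below 1 and 18 are highest.

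For the sum of the 86 genes the ratio was 13.5 on TMM library sizes, 7.34 on total gene counts and 10.7 on totals without small RNA and mitochondrial genes. Among the 20 genes called higher, tumour 4 was the highest tumour for 17, tumour 17 for 2 and tumour 14 for 1, and without it all 20 genes kept their call and Rn7sk joined them. At the low end of these 20 genes, tumour 1 was the lowest tumour for 9 and tumour 27 for 5.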

How the data were processed

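The deposited files give raw counts per gene for each of 12 libraries, made by the authors without normalization. Reads were aligned and counted with TopHat2 2.1.1 and HTSeq 0.11.0 on GRCm38 after FastQC 0.11.8, per the submitters' processing notes. Neither the annotation release nor the strand setting is given in the sources used here. HTSeq's summary rows were kept out of library sizes, and alignments to several places are among them.

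Counts were fitted in R 4.3.3 with edgeR 4.0.16 (filterByExpr, TMM, robust quasi-likelihood F test on group) over all genes, with Benjamini-Hochberg adjustment over 21456 genes and a threshold of 0.05. SE was obtained by dividing the size of the log2 fold change by the root of F. CPM use TMM library sizes with no prior count, and 3 counts correspond to 0.0986 to 0.273 CPM. Such limits cover counting error only, because no molecular identifiers were used. DESeq2 1.42.0 (no adjusted p for 10332 genes) and limma 3.58.1 (voom with quality weights) were alternatives, beside other scalings, filters and left-out libraries. Tables were made with pandas 2.3.3 in Python 3.11.15 and plots with matplotlib 3.10.9. Positions, hosts and sequences came from GENCODE M21, which matched 54106 genes by symbol, and 50-base windows were compared with all transcripts of genes that do not overlap. Tested on simulated data for this comparison over 21456 genes, the fit recovered 2.1%, 31.1%, 53.3% and 93.3% of genes changed 2-, 4-, 8- and 16-fold, with 5 false calls.

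The members, lists and alternatives were chosen with earlier results of these data known. Named genes were Rn7sk, Rmrp, Rpph1, Rprl2, the tested Rnu and Scarna genes (at most 8 each, by mean CPM), the 3 Snora and 3 Snord genes with the highest mean CPM, the 3 called with the smallest adjusted p in each direction, the 5 most raised in tumour 4, 1 gene per partner list and direction, and the hosts of these. Rnu1a1, Snora69, Ruvbl2, Snrnp48 and Taf1d, and genes so marked in the text, were added after their values were seen. Groups and replicate numbers came from the titles. The labels do not say whether libraries of a group came from different animals, so p-values measure the spread between these samples. Libraries differed beyond sampling noise, with a chi-square of at least 217 per degree of freedom for any pair of tumours and at least 24.1 for any pair of epithelium libraries.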

Additional observations from a re-analysis of the deposited data

Results flagged for a closer look

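Tumour 4 was set apart from the other 8 tumours for 17 of 34 named genes and class sums examined, by a gap to the next tumour that was larger, relative to the range of all 9 tumours, than the 95% limit of Dixon's test. No other tumour and no low value was set apart in this way. Chance alone sets about 1 in 20 groups apart, but tumour 4 was singled out and 5 of the genes were named by their ratio in it, with values known, all 17 items share a library, and the CPM of tumour 4 are raised by its scaling, so that these gaps describe the libraries and support nothing. Its highest gaps relative to the range were 0.93 for Rn7sk, at 405325 CPM against 47650 CPM in the next tumour, 0.92 for Snord17, at 9228 CPM against 1092 CPM, and 0.91 for Snord8, at 40.1 CPM against 4.61 CPM. Rprl2 had 86.1 CPM in tumour 4, Snord61 had 3.65 CPM and Snord15a 1201 CPM. Of the Cajal body genes, Scarna2 had 1256 CPM, Scarna13 had 469 CPM, Scarna6 had 314 CPM and Scarna17 had 10.8 CPM. Smaller gaps were seen for Rnu11 at 1466 CPM, Rnu3b2 at 2.55 CPM, Snora73b at 1543 CPM and Snord104 at 28.9 CPM, with gaps of 0.50 to 0.62. The class sums in tumour 4 were 2596 CPM for Snora genes, 10734 CPM for Snord genes and 2056 CPM for Scarna genes.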

How the results depend on the processing

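The 20 genes called higher numbered 16 to 21 when a tumour was left out and 7 to 12 when an epithelium library was left out. The 3 genes called lower numbered 3 to 4 without a tumour and 1 to 2 without an epithelium library, 1 without the filter on low counts, 5 by DESeq2, 10 by limma-voom and 1 without both tumour 4 and epithelium 3, an alternative chosen after seeing the data. Of the 139 tested partner and host genes, 16 were called, against 32 by DESeq2, 72 by limma-voom, 3 to 4 without an epithelium library and 6 without both tumour 4 and epithelium 3. Over all genes, edgeR called 8.89% higher and 11.4% lower, DESeq2 13.4% and 12.7%, and limma-voom 25.3% and 27.3%. DESeq2 called 26 members higher and limma-voom 27, which included all 20. The sum of the members in tumour 4 over the median of the other tumours was 13.5, against 7.34 on total gene counts and 10.7 on totals without small RNA and mitochondrial genes.

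Signs turned for 3 named genes that were not called. Rnu3b1 was 0.13 on the log2 scale, -0.69 by limma-voom, between -0.35 and 0.28 when a library was left out (below 0 without tumour 4 or 24), and -0.32 without both tumour 4 and epithelium 3. Rnu5g was 0.08 and -0.01 with upper quartile scaling, -0.07 by limma-voom, and between -0.22 and 0.68 when a library was left out (below 0 without tumour 17 or 24 or epithelium 1 or 2). Snord17 was 1.09, -0.09 by DESeq2, and between -0.08 and 1.31 when a library was left out (below 0 without tumour 4). The cause was not tested. Of the other recomputed values of named genes and classes, 535 kept their direction and side of the threshold, 24 lost and 7 gained significance, and 13 moved by more than the replicate spread. The scalings moved the median of all genes between 0.07 and 0.18.

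No paired analysis was possible because the labels pair no tumour with an epithelium library, and the shared replicate number 1 is not stated to mark a pair. Epithelium has 3 libraries, members of 1 or few counts per library cannot show a difference, and RNAs with near-identical copies are counted in part.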
